A study of Mus musculus with 2 samples.

Results

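The translation factors described here are the protein-coding mouse genes whose symbol starts with Eif (eukaryotic initiation factor, 55 genes) or Eef (eukaryotic elongation factor, 14 genes). These 69 genes were picked by symbol out of 21900 protein-coding genes and out of 55173 genes of any type with a listed ID, and the counts on all IDs of a gene were summed. They were measured by RNA-seq in 2 libraries, replicates 1 and 2, of differentiated female germline stem cells (FGSCs), which make up a single group. The labels give CD-1 as the strain, female as the sex, premeiotic interphase as the stage and retinoic acid (RA) as the treatment of both libraries. The FGSCs, cultured cells of the female germline, had been kept for 3 days on a monolayer of granulosa cells with 10 µM RA and 10 ng/mL BMP4, without GDNF, EGF and LIF. Each library was prepared from 5 to 8 cells by a Smart-seq protocol, which captures polyadenylated RNA and copies the resulting cDNA by PCR before sequencing. The labels do not say whether the replicates came from separate cultures, and granulosa cells shared the dish. Before induction, FGSCs were grown on a feeder layer of STO cells, which derive from mouse embryos. No other cell population was analysed, and conditions were not compared.

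Initiation factors bring the small ribosomal subunit, the initiator tRNA and the mRNA together at the start codon. The cap complex eIF4F binds the 5′ end of the mRNA, eIF3 holds the assembly on the small subunit, and eIF2 carries the initiator tRNA and is recharged with GTP by eIF2B. Elongation factors then deliver each aminoacyl-tRNA (eEF1A) and move the ribosome along by a codon (eEF2). Stress kinases that phosphorylate eIF2 alpha and proteins that sequester the cap-binding subunit eIF4E are the known brakes of the pathway, and oocytes rely on such control because stored mRNAs are translated while transcription is silent.

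Replicate 1 held 1517151 counts and replicate 2 held 12442. Counts per 1000000 (CPM) therefore came in steps of 0.659 in replicate 1 and of 80.4 in replicate 2. The protein accessions, which held 86.1% of the counts in replicate 1 and 48.8% in replicate 2, are not paired with genes, and their genes were deduced from their place in the list. The label was checked with marker genes. Of 12 germ cell markers, only Kit had a count in replicate 1 (1 count), and none had a count in replicate 2. Ddx4, Dazl, Stra8 and Sycp3 were at 0 in both libraries, and for Ifitm3 up to 10577 counts lay on IDs with several candidate genes. Of 12 fibroblast markers, 10 had a count in replicate 1, against 36.9% of all protein-coding genes, and 6 had at least 3. Dcn (2281) and Col1a2 (910) were highest, whereas a single count (1) was all that Thy1, Vim and Fn1 had, and Pdgfrb and Lum were at 0. The list held 0.292% of the counts in replicate 1 and 0.145% in replicate 2. Of 12 granulosa cell markers, 5 had a count in replicate 1, led by Kitl (453) and Fst (229), while the defining genes Foxl2 and Amh were at 0. The values below are thus those of the libraries labelled differentiated FGSCs, and the part that other cells had in them was not tested. A lower value can reflect fewer cells of a type or less RNA per cell, and these cannot be told apart.

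Translation factors were detected widely in replicate 1, while in replicate 2 their share with a count was near that of all protein-coding genes. In replicate 1, 52 of the 69 genes (75.4%, 95% Wilson interval 64 to 84) had at least 1 count, against 36.9% of all protein-coding genes. In replicate 2, 10 genes (14.5%, interval 8.07 to 24.7) had a count, against 10.7% of all protein-coding genes, and the same 10 made up the genes with a count in both libraries, where the share over all protein-coding genes was 7.08%. A level of at least 3 counts was reached by 44 genes (63.8%, against 27.7%) in replicate 1 and by 1 gene (1.45%, against 3.2%) in replicate 2. In replicate 1, 42 genes (60.9%, against 23.4%) reached 1 fragment per kilobase of exon and 1000000 counts (FPKM), and the median log2(FPKM + 1) was 2.22, against 0.00 over all protein-coding genes. The remaining 17 genes had no count in either library, and for 5 of these some counts of replicate 1 lay on IDs with several candidate genes. The intervals cover counting error only, since PCR copies are not independent molecules.

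**Figure D1:**
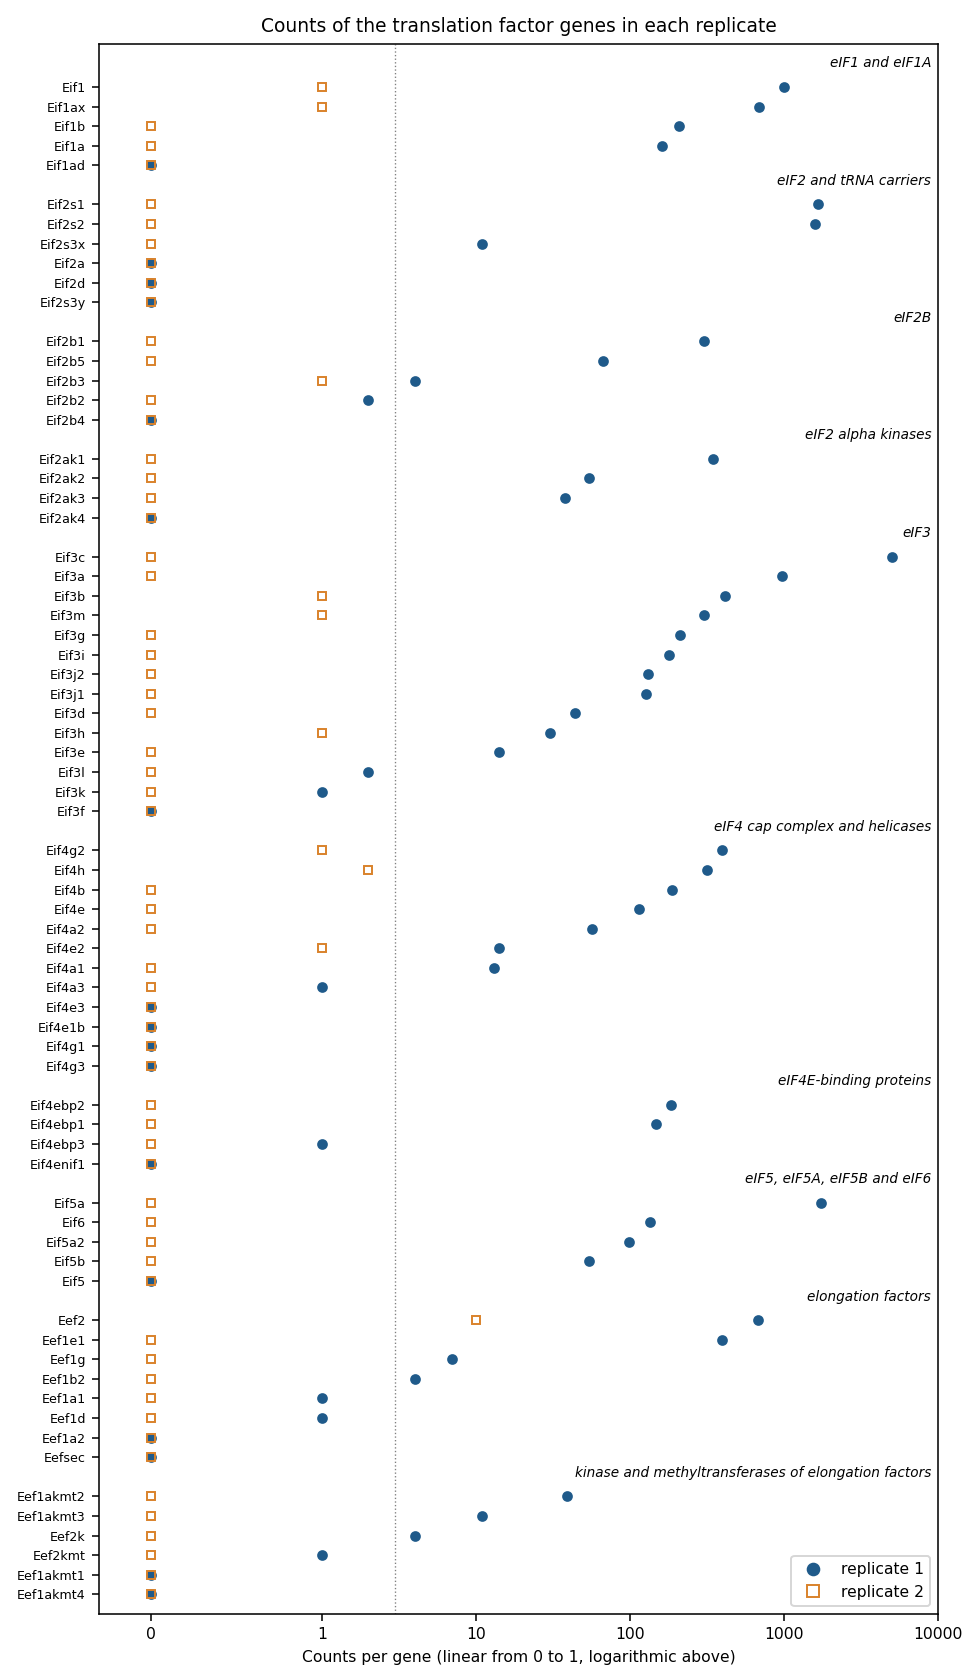
Counts of each of the 69 translation factor genes, 1 row per gene and grouped by role, in replicate 1 (filled circles) and replicate 2 (open squares), on an axis that is linear from 0 to 1 and logarithmic above, with a dotted line at 3 counts. Replicate 1 spans 0 to 4972 counts, whereas in replicate 2 only Eef2, with 10 counts, lies beyond the line.

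The factors that select the start codon on the small subunit, eIF1 and eIF1A, had counts in 4 of 5 genes in replicate 1. Eif1 (chr11:100319885-100322096, + strand, GRCm38), whose product keeps the scanning ribosome open until the start codon is met, had 1002 counts in replicate 1 and 1 in replicate 2, and its 315 FPKM (exact Poisson interval 296 to 335) ranked after Eif3c and Eif5a among the factors in replicate 1. Its paralog Eif1b had 209 counts (122 FPKM) and 0. The X-linked Eif1ax had 689 counts (86.2 FPKM) and 1, and Eif1a, the copy on chromosome 18, had 160 counts (25.3 FPKM) and 0. Eif1ad, which encodes a protein with an eIF1A domain, had no count of its own, and 428 counts of replicate 1 lay on IDs that could be Eif1ad or another gene.

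The subunits of eIF2, the GTPase that brings the initiator tRNA, were unequal in replicate 1. Eif2s1 (chr12:78861819-78887010, + strand), the alpha subunit that the stress kinases phosphorylate, had 1663 counts (221 FPKM, interval 211 to 232) in replicate 1 and 0 in replicate 2. Eif2s2, the beta subunit, had 1596 counts (156 FPKM, interval 148 to 164) and 0. Eif2s3x, the X-linked gamma subunit, which binds GTP and the tRNA, had 11 counts (1.9 FPKM, interval 0.949 to 3.4) and 0. In replicate 1, the level on the gamma subunit's own IDs thus lay far below those of the alpha and beta subunits. The intervals did not overlap, but they cover counting error only, and each of these genes was at 0 in replicate 2. Of the 50-base windows of Eif2s3x, 34.6% also occurred in other genes, against 5.76% for Eif2s1 and 10.3% for Eif2s2. The pseudogene Gm2223 shared 1301 windows with Eif2s3x and had 1 count in replicate 1, and the sum would give 2.07 FPKM. The part of shared sequence in the low value was not tested. The Y-linked copy Eif2s3y was at 0 in both libraries. Eif2a, which can carry the initiator tRNA without GTP, was at 0, and for Eif2d, which delivers tRNA without eIF2, 67 counts lay on IDs with several candidate genes.

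Genes of eIF2B, the 5-subunit exchange factor that recharges eIF2, were as uneven. Eif2b1 (alpha) had 304 counts (77.6 FPKM) in replicate 1 and Eif2b5 (epsilon, the catalytic subunit) had 67 (17 FPKM), both with 0 in replicate 2. Eif2b3 (gamma) had 4 counts and 1 count, Eif2b2 (beta) had 2 and 0, and Eif2b4 (delta) had none. Of the 4 kinases of eIF2 alpha, the heme-regulated Eif2ak1 was the highest with 344 counts (40 FPKM, interval 35.9 to 44.4) in replicate 1. Eif2ak2 (PKR, activated by double-stranded RNA) had 54 counts (6.96 FPKM) and Eif2ak3 (PERK, the kinase of the endoplasmic reticulum) had 38 (4.16 FPKM), while Eif2ak4 (GCN2, which senses uncharged tRNA) was at 0. None of the kinases had a count in replicate 2.

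The 14 genes of eIF3, the scaffold of the initiation complex, held 7390 of the 18134 counts of the factors in replicate 1 and 3 of 20 in replicate 2. Eif3c (chr7:126546455-126566411, - strand), a core subunit, was the highest of all 69 genes with 4972 counts in replicate 1, which is 933 FPKM (interval 908 to 960) and 27.4% of all factor counts, yet it had 0 counts in replicate 2. The next by FPKM were Eif3b (410 counts, 80.8 FPKM), Eif3m (304 counts, 77.4 FPKM), Eif3a (965 counts, 72.9 FPKM) and Eif3g (211 counts, 70.1 FPKM). Eif3b, Eif3m and Eif3h had 1 count each in replicate 2. At the lower end, Eif3e had 14 counts (1.37 FPKM), Eif3l had 2 (0.362 FPKM) and Eif3k had 1 (0.244 FPKM) in replicate 1, and Eif3f had none of its own with 475 counts on IDs of several candidate genes. Levels within the complex thus spanned from 0 to 933 FPKM. Eif3j1 (127 counts) and Eif3j2 (130 counts) are near-identical copies: 50.9% of the 50-base windows of Eif3j1 and 91.8% of those of Eif3j2 also occurred in other genes, so the split between them is uncertain.

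In the cap-binding complex, the highest levels on the genes' own IDs were those of accessory members. Eif4h, a cofactor of the helicase, had 314 counts (37.3 FPKM) in replicate 1 and 2 in replicate 2, and Eif4b, the other cofactor, had 188 counts (27.7 FPKM) and 0. Eif4g2, a relative of the scaffold eIF4G that does not bind eIF4E, had 396 counts (25.7 FPKM) and 1. Eif4e, which binds the cap, had 114 counts (12.5 FPKM, interval 10.3 to 15) and 0. Eif4e2, a cap-binding repressor, had 14 counts and 1 count. The helicase genes Eif4a2 and Eif4a1 had 57 counts (7.04 FPKM) and 13 counts (1.98 FPKM) in replicate 1. All 13 counts of Eif4a1 lay on a processed transcript, and with the counts of its pseudogenes it would stand at 31.8 FPKM, above Eif4b and Eif4g2. Eif4a3, a subunit of the exon junction complex, had 1 count. The canonical scaffolds Eif4g1 and Eif4g3 were at 0 in both libraries, as was Eif4e3. The oocyte-type cap-binding gene Eif4e1b had no count of its own, with 24 counts on ambiguous IDs in replicate 1.

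Of the eIF4E-binding proteins, which block cap-dependent initiation until TOR phosphorylates them, Eif4ebp1 had 148 counts (44.4 FPKM, interval 37.6 to 52.2) and Eif4ebp2 had 183 (20.9 FPKM, interval 17.9 to 24.1) in replicate 1. The FPKM of each, per kilobase of all exons, was above that of Eif4e in replicate 1. The intervals did not overlap, but they cover counting error only. Per kilobase of exon bases covered by only 1 listed transcript, Eif4e came to 15.7 FPKM, Eif4ebp2 to 20.9 and Eif4ebp1 to 61.1, without intervals. Eif4e too was at 0 in replicate 2. Eif4ebp3 had 1 count and the eIF4E transporter Eif4enif1 had 0. None of them had a count in replicate 2.

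Eif5a (chr11:69916714-69921958, - strand) was second among all factors, with 1746 counts (484 FPKM, interval 462 to 507) in replicate 1 and 0 in replicate 2. Its product helps the ribosome past stalling peptides and is the protein that carries hypusine, a modified lysine. The paralog Eif5a2 (chr3:28781276-28798846, + strand) had 99 counts (13 FPKM, interval 10.6 to 15.8) and 0. The coding stretches around the hypusine site are shown because these paralogs encode the same modified lysine, at residue 50 in both, yet can be told apart by their bases. Capitals mark the lysine codon.
Eif5a: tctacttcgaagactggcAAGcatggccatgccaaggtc
Eif5a2: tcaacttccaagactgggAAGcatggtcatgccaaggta
The first lies at chr11:69918019-69919186 on the - strand and the second at chr3:28782181-28782730 on the + strand of GRCm38, each across an exon junction. The coding sequences of 447 and 459 bases were identical at 72.9% of aligned bases, and 0 of the 50-base windows of Eif5a2 occurred in another gene, so no window of this length lay in both paralogs. Eif6, which keeps the large subunit from joining early, had 135 counts (32.9 FPKM), and Eif5b, the GTPase of subunit joining, had 54 (3.65 FPKM). Eif5, which makes eIF2 hydrolyse its GTP, was at 0 on all of its 15 IDs.

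The elongation factors had unequal counts. Eef2 (chr10:81176631-81182498, + strand), the translocase, had 677 counts (134 FPKM, interval 124 to 145) in replicate 1 and 10 counts (242 FPKM, interval 116 to 445) in replicate 2, and it alone among the 69 genes had at least 3 counts in both libraries. Eef1e1, which encodes a scaffold of the multi-tRNA synthetase complex, had 393 counts (79.5 FPKM) and 0. Eef1a1, the carrier of aminoacyl-tRNA, had 1 count (0.264 FPKM, interval 0.00669 to 1.47) on its 8 IDs in replicate 1 and 0 in replicate 2. Its muscle and neuron form Eef1a2 was at 0 in both. The subunits of its exchange factor were also low, with 7 counts for Eef1g, 4 for Eef1b2 and 1 for Eef1d in replicate 1 and 0 for each in replicate 2. All 7 counts of Eef1g lay on a retained intron and a processed transcript. With the counts of their pseudogenes, described further on, Eef1a1 would stand at 352 FPKM and Eef1g at 313, above Eef2, so their low values hold for the genes' own IDs only. Eefsec, the factor for selenocysteine, had no count. Of the enzymes that modify the elongation factors, the methyltransferase genes Eef1akmt2 and Eef1akmt3 had 39 and 11 counts, the kinase Eef2k had 4 and the methyltransferase Eef2kmt had 1 in replicate 1, and none had a count in replicate 2. For Eef1akmt2, 35 of the 39 counts lay on a retained intron transcript. Eef1akmt1 had 16 counts on ambiguous IDs, and Eef1akmt4 had only ambiguous IDs, all at 0.

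**Figure D2:**
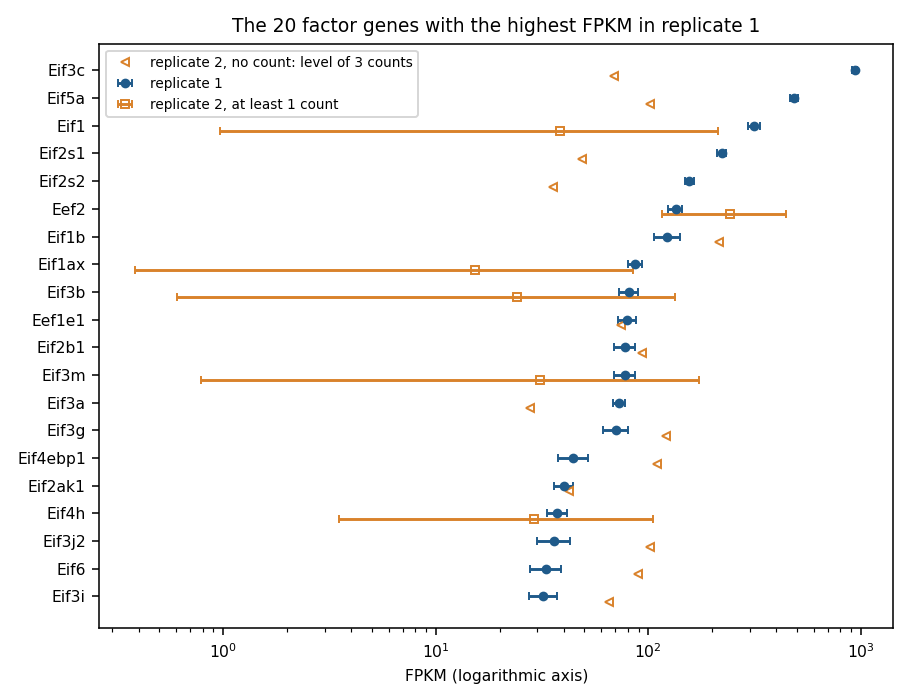
FPKM (logarithmic axis) of the 20 translation factor genes with the highest level in replicate 1, with exact 95% Poisson intervals of counting error, for replicate 1 (filled circles) and replicate 2 (open squares). Open triangles mark the level of 3 counts where replicate 2 had none. Eif3c stands at 933 FPKM in replicate 1, far beyond the 68.7 FPKM that 3 counts would give in replicate 2, whereas the intervals of Eef2 in the 2 libraries overlap.

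The factors held 18134 counts, or 1.2% (interval 1.18 to 1.21) of the library, in replicate 1 and 20 counts, or 0.161% (interval 0.104 to 0.248), in replicate 2. The share was thus 7.44 times higher in replicate 1, whereas over all protein-coding genes it was 1.28 times higher, 74.8% against 58.5%. On the genes' own IDs, the initiation and elongation factors differed in this respect. Genes named Eif held 1.12% of replicate 1 and 0.0804% of replicate 2, a ratio of 13.9, while genes named Eef held 0.075% and 0.0804% (interval 0.0437 to 0.148), a ratio of 0.933. This contrast rested on Eef2, which held all 10 elongation factor counts of replicate 2: without Eef2 the ratio over all factors was 14.3, and without Eif3c it was 5.4. The contrast also left out pseudogenes. Those of Eef1a1 and Eef1g held 1332 and 1227 counts in replicate 1, against 1 and 0 in replicate 2. With pseudogene counts added, the ratio over all factors was 6.75, and separate ratios for Eif and Eef genes were not computed. The direction also rested on the protein accessions, whose genes are inferred. On Ensembl transcript IDs alone, which were the retained intron and processed transcripts of the factors, the ratio turned to 0.418, with 102 counts (0.00672%, interval 0.00554 to 0.00816) in replicate 1 and 2 counts (0.0161%, interval 0.00441 to 0.0586) in replicate 2, and these intervals overlapped. The shares of protein accessions (86.1% against 48.8%) and of retained intron transcripts (1.51% against 14.6%) among all counts also differed between the libraries, and their part in the ratio was not tested. No test between the 2 libraries was made, since they are replicates of the same group.

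The zeros of replicate 2 were set against its depth. Scaled to the total of replicate 2, the share of replicate 1 came to at least 1 count for 25 of the 69 genes, and 18 of these 25 had none. It came to at least 3 counts for 11 genes, of which 6 had none: Eif3c (40.8 counts by proportion), Eif5a (14.3), Eif2s1 (13.6), Eif2s2 (13.1), Eif3a (7.91) and Eef1e1 (3.22). Over all protein-coding genes, 36.9% had a count in replicate 1 and 7.08% in both replicates. The scaling was not done for them, so these zeros cannot be called particular to the factors. For Eif3c, the exact Poisson interval of the 0 in replicate 2 reached up to 84.4 FPKM, and 3 counts would give 68.7 FPKM, against 933 in replicate 1. Eef2 had 10 counts where proportion gave 5.55. Where proportion gave fewer than 3 counts, the floor, a 0 in replicate 2 could not be told from the level of replicate 1. Among the other 44 genes, where it gave less than 1 count, Eif3h, Eif4e2 and Eif2b3 still had 1 count each. The count of Eif3h lay on a retained intron transcript and that of Eif2b3 on a processed transcript. The IDs that held the counts of Eif3h and Eif4e2 were at 0 in replicate 1.

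**Figure D3:**
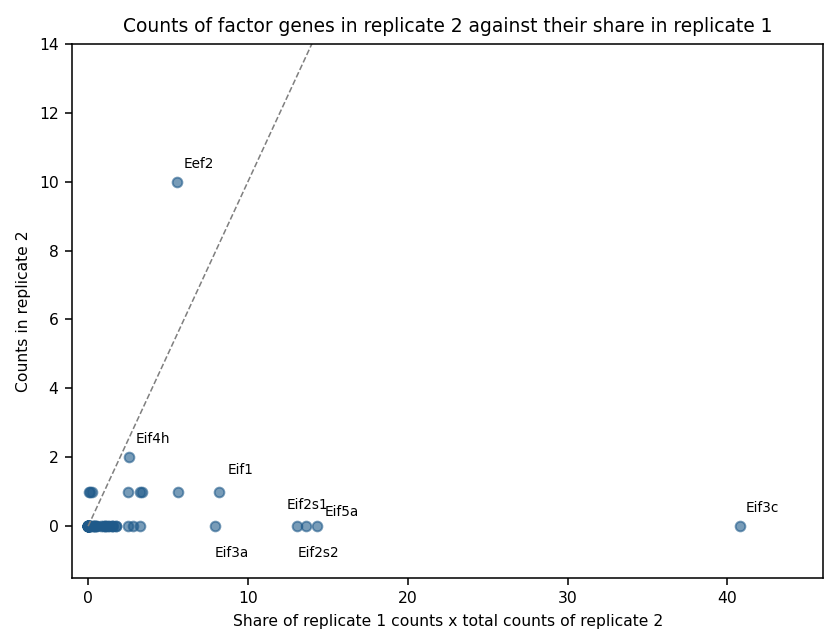
Counts of each translation factor gene in replicate 2 (vertical axis) against the counts that its share of replicate 1 gives at the total of replicate 2 (horizontal axis), with a dashed line of equality. Eif3c lies at 40.8 on the horizontal axis and 0 on the vertical axis, and Eef2, at 10 counts, lies above the line.

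The annotated transcripts behind the factor counts were mostly coding. Protein accessions held 18032 counts (99.4%) of replicate 1, retained intron transcripts held 69 (0.381%) and processed transcripts held 33 (0.182%). In replicate 2 the corresponding values were 18, 1 and 1. Detection varied, over protein-coding genes at large, with how much of a gene belonged to a single listed transcript. Among all protein-coding genes, the share with a count in replicate 1 was 1.93% where the longest stretch of exon bases covered by only 1 listed transcript was 50 bases or fewer and 46% where it exceeded 1200 bases. Of the factors, 27 of 33 with more than 1200 such bases had a count (81.8%, against 46% of all protein-coding genes). With more than 600 and up to 1200, 12 of 17 did (70.6%, against 33.9%). With more than 300 and up to 600, 8 of 12 did (66.7%, against 30.9%). With more than 150 and up to 300, 4 of 6 did (66.7%, against 23%). The single factor below that also had a count (against 9.61%), and no factor had 50 or fewer. The stretch had a median of 718 bases in the 12 factors with no count on any ID in replicate 1. In the 44 factors with at least 3 counts there, the median was 1380 bases. Between single genes the stretch varied. It was 153 bases in Eef1a1 (1 count), 167 in Eif2b4 (0) and 258 in Eif5 (0), but also 165 in Eif3h (30 counts), and it was 2084 in Eef1a2, 1919 in Eif4e3 and 1762 in Eif2a, all at 0. The part of shared exon bases in the zeros of single factors was not tested, and a 0 does not show that a gene was silent. The counting is not stated to use strand, so reads from overlapping genes on the opposite strand could not be separated.

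Processed pseudogenes, copies of an mRNA pasted back into the genome, were counted beside several factors with few counts. For 19 factors, at least 1 pseudogene held 100 or more of the gene's 50-base windows, a limit chosen after the values were seen, as were the pseudogenes named here. Of these 39 pseudogenes, 38 (97.4%) had a count in replicate 1, against 20.4% of 9939 processed pseudogenes, and they held 3273 counts in replicate 1 and 6 in replicate 2. The 39 were picked by sequence shared with a factor and could be of any pseudogene type. The 9939 were processed pseudogenes not picked by sequence, so the percentages are not like for like. In 7 factors the pseudogenes held more counts than the gene. The clearest case was Eef1a1, with 1 count of its own and 1332 on 12 pseudogenes, among them Gm13456 (900), AC133509.1 (144) and AC124512.1 (102). Adding them would raise Eef1a1 from 0.264 to 352 FPKM, with 2 factors above it. Eef1g had 7 counts, and its 4 pseudogenes had 1227, of which 1150 lay on Gm4366, so that the sum corresponded to 313 FPKM instead of 1.77. Eif4a1 had 13 counts, against 194 on Eif4a-ps4, with which it shared 1119 windows, and the sum gave 31.8 FPKM instead of 1.98. Eif3e had 14 counts and its pseudogenes 73, of which Eif3s6-ps2 held 70. Eef1b2 (4 against 20), Eef1d (1 against 3) and Eif4a3 (1 against 3) went the same way. In the highest factors the pseudogenes were a minor addition, with 9 counts beside the 4972 of Eif3c, 190 beside the 1002 of Eif1 and 83 beside the 1596 of Eif2s2. Which of the loci gave rise to these reads was not tested.

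The following 50-base coding windows are shown because they occur without a mismatch in the factor and in some of its pseudogenes, so that a read inside them has no single place.
Eef1a1: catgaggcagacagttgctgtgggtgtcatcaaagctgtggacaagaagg
Eif4a1: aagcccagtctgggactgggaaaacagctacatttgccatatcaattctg
Eif3e: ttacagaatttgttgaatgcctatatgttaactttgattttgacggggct
The window of Eef1a1 (chr9:78478790-78478839, - strand, GRCm38) occurred in 7 other genes, that of Eif4a1 (chr11:69670205-69670254, - strand) in 4, among them Eif4a-ps4, and that of Eif3e (chr15:43262626-43262675, - strand) in 3, and all of these were pseudogenes. The pseudogenes with the shared window did not include AC133509.1 and AC124512.1 for Eef1a1, nor Eif3s6-ps2, which held most pseudogene counts of Eif3e. Over the whole gene, 40.4% of the windows of Eef1a1, 44.2% of those of Eef1g and 28.4% of those of Eif4a1 recurred elsewhere, against 7.25% for Eif3c and 3.77% for Eif5a. This share did not order the genes by their counts, since it was 5.75% for Eif3e with 14 counts, 18.4% for Eif3m with 304 and 91.8% for Eif3j2 with 130.

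**Figure D4:**
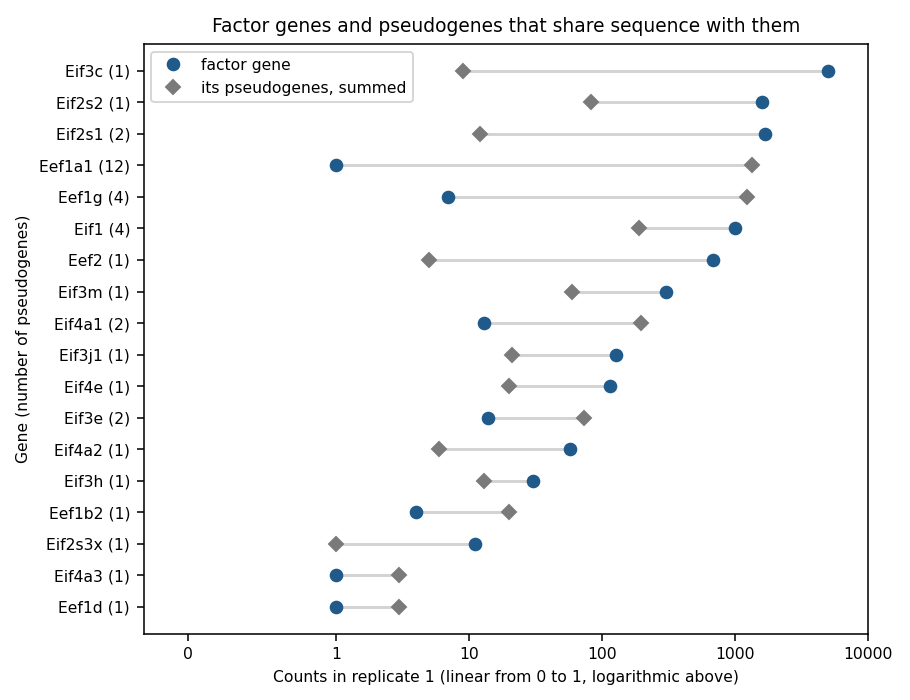
Counts in replicate 1 (linear from 0 to 1, logarithmic above) of translation factor genes (circles) and the summed counts of the pseudogenes that share at least 100 windows with them (diamonds), with the number of pseudogenes in parentheses and Eif4e1b, at 0 for both, left out. Eef1a1, Eef1g and Eif4a1 lie to the left of their pseudogenes, whereas Eif3c, Eif2s1 and Eif2s2 lie to the right.

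Genes that work with the factors gave a mixed picture in replicate 1. For comparison, 36.9% of all protein-coding genes had a count. Of 6 genes of termination and recycling, 5 had a count, led by Abce1 (425), which splits the ribosome after termination. The release factor Etf1 had none of its own and up to 3242 on ambiguous IDs. Of 8 genes listed as partners at the poly(A) tail and the cap, 7 had a count, led by Paip2 (742), an inhibitor of the poly(A)-binding protein, while Pabpc1, that protein itself, had 257. The list included Dap (611), the gene of death-associated protein 1, whose place among these partners is not established. Of 7 genes outside the Eif family that act before, on or after the phosphorylation of eIF2 alpha, 5 had a count. Impact, an inhibitor of GCN2 activation, had 240, Trib3 and Ddit3, stress genes downstream, had 608 and 33, whereas Atf4, the transcription factor whose translation rises with this phosphorylation, was at 0. Of 11 genes of TOR and MAP kinase control, 7 had a count, with Rheb (397), the activator of TOR, and Rps6kb1 (123), a TOR substrate, in the lead. Of 9 mitochondrial translation factors, 8 had a count but together held only 304 counts. Of 20 cytosolic aminoacyl-tRNA synthetases, 14 had a count, and their 8630 counts were led by Gars (2596), Aars (1463) and Rars (1112). In replicate 2 these 6 lists held from 1 to 13 counts each, of which Ppp1r15b, a subunit of the phosphatase of eIF2 alpha, had 11 and Rptor had 5.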

How the data were processed

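Whole-number counts per ID were deposited for 2 libraries, without normalization or pooling. Per the labels, FastQC, Trim Galore, HISAT2 2.2.1 and featureCounts were used with mm10, whereas the study's methods name TopHat and Cufflinks. The counts are those of 129311 IDs, of which 76066 are Ensembl transcripts and 53245 are protein accessions. Since the IDs follow chromosome and transcript start, an accession was placed among the coding transcripts of GENCODE M21 (GRCm38) that start between its listed neighbours and are not listed themselves. A single gene remained for 45495 accessions (85.4%), and these gene names are inferred. IDs of 1 gene held 86.8% of the counts in replicate 1 and 91.9% in replicate 2. Counts on the other IDs were left out of the sums and are called ambiguous. The 69 factors had 390 IDs, and 15 also had ambiguous IDs. FPKM was computed from the counts per kilobase of the union of exons and per 1000000 counts of the library. Shares have 95% Wilson intervals and levels have exact Poisson intervals, both of counting error, and 3 counts were taken as the floor.

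Members and lists were chosen with earlier results of these data known. The genes named are the 10 with the highest FPKM in replicate 1, those with 3 or more counts in replicate 2, and a list of core factors, others being given by role. Alternatives were the IDs used, ambiguous counts, the count minimum, denominators, the pseudocount, the length used and each replicate left out. Denominators of protein-coding counts, the ratio of shares with its alternatives and pseudogene sums were added after seeing the data. No groups could be compared. Carrier DNA with dUTP had been added to the cDNA and later removed by enzyme. Values were computed in Python 3.11.15 with pandas 2.3.3 and numpy 2.4.6, intervals with scipy 1.17.1 and plots with matplotlib 3.10.9.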

Additional observations from a re-analysis of the deposited data

Results flagged for a closer look

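Of the 10 annotated pseudogenes that are named after a translation factor and stand outside the 69 genes, 8 had at least 3 counts, the floor, in replicate 1. Among all 9939 processed pseudogenes, 11.6% had at least 3 counts, and no control samples were there to set them against. Eif4a-ps4 had 194 counts, Eif3s6-ps2 had 70 and Eif1-ps1 had 28. Eif5al3-ps had 8 counts, Eif1-ps2 had 6, Eif3s6-ps3 had 5, Eif3s6-ps4 had 4 and Eif3s6-ps1 had 3. In replicate 2, only Eif3s6-ps4 had counts, namely 2.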

How the results depend on the processing

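Of 62 alternatives over 11 results, 37 kept the value within a set limit. This was the counting interval for shares, 1.5 times for counts and ratios and the SD of the replicates for medians. That SD came from medians of 2.22 and 0.00 in replicates 1 and 2 and was thus wide. Medians of 3.00 with ambiguous counts, 3.13 with pseudogene counts and 3.21 per kilobase of bases of 1 listed transcript therefore passed as unchanged. Another 24 alternatives moved the value and 1 reversed it: the ratio of shares, replicate 1 over replicate 2, was 0.418 instead of 7.44 with only Ensembl transcript IDs. With these IDs, whose genes are not inferred, 13 factors had a count in replicate 1, 9 had at least 3, 2 had a count in replicate 2, 0 had at least 3 there, 1 had a count in both and 5 reached 1 FPKM, with shares of 0.00672% and 0.0161% and a median log2(FPKM + 1) of 0.00, so the levels given rest on the inferred genes. At a minimum of 3 or 10 counts, 1 factor (Eef2) was counted in replicate 2 and 1 in both replicates. The share in replicate 1 was 1.26% with ambiguous counts given to each gene, 1.03% without genes that have ambiguous IDs, 1.36% without the mitochondrial genome and 1.6% of protein-coding counts, and the share in replicate 2 was 0.275% of protein-coding counts. Adding pseudogene counts gave 1.41% in replicate 1 and 2 factors with at least 3 counts in replicate 2. The ratio of shares was 14.3 without Eef2. The median over genes with a count was 3.95. Leaving out each replicate gave 10 to 52 factors with a count and a median of mean FPKM, on the log2 scale, of 0.00 to 2.22, the low values being those of replicate 2. The other causes were not tested. No paired analysis was possible because the replicates form a single group. The depth of replicate 2 limits every comparison of the replicates.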

Other observations

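Eif2c5, a long intergenic non-coding RNA in the annotation despite its symbol and thus outside the 69 genes, had 27 counts in replicate 1 and 0 in replicate 2.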
